A study of Mus musculus with 3 samples.

Results

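Lyve1, Mmrn1, Pdpn, Reln, Marco, Mrc1, Stab1 and Stab2 are 8 of the 32285 genes counted in this series, and all are used in the literature as genes of lymphatic endothelium. They were chosen by name, and they were described in cell barcodes that occur in all 3 libraries of the series, split by whether the barcode held at least 1 UMI (a unique molecular identifier, here 1 counted transcript) of Ackr4, of Marco or of Madcam1, and set against barcodes found in 1 library only. The series is 10x Genomics 3′ single-cell RNA-seq of mouse small-intestinal organoids, with 1 library per genotype. Organoids were at passage 3, day 6, and were taken apart with trypsin before capture. The donor mice were C57BL/6, 7 to 8 weeks old. The 3 genotypes were WT, LApc (Lgr5-CreERT2; Apc fl/fl) and LApcL (the LApc alleles together with Lef1 fl/fl), where the Cre is driven by Lgr5 and so acts in the Lgr5-positive stem cells alone. All mice, WT included, received 2 doses of 2 mg tamoxifen, and tissue was taken at 21 days for WT and LApcL and at 29 days for LApc. With 1 library per genotype there was no replicate, so no test was possible and no p-value is given. Every interval is an exact 95% interval that covers counting error only.

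Lymphatic endothelial cells line the vessels that return tissue fluid, lipids and immune cells to the blood, and in lymph nodes they line the sinuses through which lymph percolates. The transcription factor Prox1 sets and keeps their identity, and Flt4 is the receptor through which they answer the growth factor Vegfc. In the lymph node, the ceiling of the subcapsular sinus carries the chemokine-scavenging receptor Ackr4, its floor carries the adhesion molecule Madcam1, and the medullary sinuses carry the scavenger receptor Marco, and these 3 genes are the ones that set the groups here. Of the 8 genes, Lyve1 encodes a hyaluronan receptor, Pdpn encodes the membrane mucin podoplanin that binds Clec1b on platelets, and Marco, Mrc1, Stab1 and Stab2 encode endocytic scavenger receptors. Mmrn1 encodes multimerin 1 and Reln encodes reelin, and both of these are secreted, so the 8 are not all surface proteins. Marco, Mrc1, Stab1 and Lyve1 are also made by subsets of macrophages, which is why macrophage genes are given beside them.

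The WT, LApc and LApcL libraries held 11411, 10706 and 12068 barcodes and 87185429, 118867221 and 112057783 UMIs. Across them, 3195 barcodes occurred in all 3 libraries, 135 in exactly 2 and 24330 in 1. Of the shared barcodes, 3145 had at most 20% mitochondrial UMIs in the WT counts, with median depths of 2200 UMIs (WT), 1499 (LApc) and 1626 (LApcL). A shared barcode had nearly the same relative depth in each library, with a Pearson r of 0.992 between WT and LApc total UMIs and of 0.987 between WT and LApcL over the 3145 barcodes. The counts of these barcodes in the 3 libraries are therefore not independent samples of 3 genotypes, and they are given side by side only to show the reading in each library. It was not tested whether the counts of the shared barcodes come from the labelled organoids, so their levels are not stated as levels of these organoids. Apc stood at 22.8, 88.0 and 94.4 CPM (UMIs of the gene per 1000000 UMIs of the set) and Lef1 at 0.950, 70.9 and 49.2 CPM in the single-library barcodes of WT, LApc and LApcL. Counts of 3′ ends do not show whether the floxed exons were removed.

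The labelled tissue is epithelium, but the shared barcodes did not carry its markers. The summed level of 8 epithelial genes was 26.7 CPM in the shared barcodes and 12854 CPM in the single-library barcodes of WT, while 8 pan-endothelial genes (Pecam1 and Cdh5 among them) summed to 5156 CPM against 16.4 CPM. The 14 macrophage and dendritic genes summed to 48.8 CPM in the shared barcodes, with Fcgr1 and Itgax at 0 UMIs, against 8.99 CPM in the single-library barcodes of WT, and 8 fibroblastic and smooth muscle genes to 79.3 against 2.89 CPM. Within the shared barcodes, 423 held a WT UMI of Ackr4, 355 of Marco and 113 of Madcam1, and these are called the Ackr4, Marco and Madcam1 barcodes. They overlapped in 28 (Ackr4 and Marco), 5 (Ackr4 and Madcam1) and 24 barcodes (Marco and Madcam1). The other 2311 shared barcodes held none of the 3 genes and were mostly blood endothelial by their counts, with 12491 CPM of 10 blood endothelial genes. Narrower references were used beside them, namely 332 shared barcodes with Prox1 but none of the 3 genes (Prox1-alone barcodes) and 1751 blood endothelial reference barcodes.

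The region just upstream of the gene start is shown for 3 of the genes. Mmrn1 stood highest in Ackr4 barcodes, Reln stood highest in Marco barcodes, and Marco set those barcodes. The letters are from RefSeq on GRCm38.p6, 250 bases before the start, 5′ to 3′ on the strand of the gene. Capitals mark GGAAG (the core bound by ETS factors), ACAAT (bound by SOX factors) and TGCTGA (bound by MAF factors), each searched on both strands, so that reverse complements are in capitals too. The Mmrn1 window is chr6:60944067-60944316, the Reln window is chr5:22344706-22344955 and the Marco window is chr1:120505025-120505274. The Mmrn1 window lies before the RefSeq start and inside the longer span given for the gene below.
Mmrn1: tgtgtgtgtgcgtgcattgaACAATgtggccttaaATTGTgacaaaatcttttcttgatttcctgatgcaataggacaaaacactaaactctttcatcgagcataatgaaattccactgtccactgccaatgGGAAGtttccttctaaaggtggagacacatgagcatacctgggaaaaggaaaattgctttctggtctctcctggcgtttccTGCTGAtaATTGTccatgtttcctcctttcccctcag
Reln: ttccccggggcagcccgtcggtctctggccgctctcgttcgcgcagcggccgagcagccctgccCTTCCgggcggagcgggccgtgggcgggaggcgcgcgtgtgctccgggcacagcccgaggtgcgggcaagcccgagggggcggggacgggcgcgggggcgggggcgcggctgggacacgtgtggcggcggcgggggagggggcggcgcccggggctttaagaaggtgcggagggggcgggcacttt
Marco: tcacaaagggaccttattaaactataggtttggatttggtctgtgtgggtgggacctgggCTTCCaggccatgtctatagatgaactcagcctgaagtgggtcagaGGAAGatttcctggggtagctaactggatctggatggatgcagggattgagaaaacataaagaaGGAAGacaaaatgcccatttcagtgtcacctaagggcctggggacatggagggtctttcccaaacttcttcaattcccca
The Mmrn1 window held 1 GGAAG, 3 ACAAT and 1 TGCTGA, the Reln window held 1 GGAAG, and the Marco window held 3 GGAAG and neither of the other motifs. G and C made up 42.4% of the Mmrn1 window, 80.0% of the Reln window and 47.6% of the Marco window. Of the 7 genes with an entry, 6 held GGAAG, 2 held ACAAT and 2 held TGCTGA, beside 64.1%, 27.7% and 16.1% of all 32851 promoters of the same length. These matches are a description of letters, and Lyve1 had no entry.

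On mm10, Lyve1 (ENSMUSG00000030787) spans chr7:110850607-110863239 on the reverse strand with 6 exons, and Pdpn (ENSMUSG00000028583) spans chr4:143267431-143299564 on the reverse strand with 6 exons. Mmrn1 (ENSMUSG00000054641) spans chr6:60924976-60989378 on the forward strand with 8 exons, and Reln (ENSMUSG00000042453) spans chr5:21884454-22344702 on the reverse strand with 65 exons. Among the scavenger receptors, Marco (ENSMUSG00000026390) spans chr1:120474538-120505024 on the reverse strand with 17 exons, and Mrc1 (ENSMUSG00000026712) spans chr2:14229392-14332057 on the forward strand with 30 exons. Stab1 (ENSMUSG00000042286) spans chr14:31139013-31168641 and Stab2 (ENSMUSG00000035459) spans chr10:86841198-87008025, both on the reverse strand with 69 exons each.

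All 8 genes stood far higher in the shared barcodes than in barcodes of 1 library only, in each of the 3 libraries. By a 2-fold rule on log2(CPM + 1), 8 of 8 were higher in WT, where 27.6% of 16671 tested genes were, 8 of 8 in LApc (19.8%) and 8 of 8 in LApcL (22.0%), and 0 of 8 were lower (17.9%, 20.8% and 21.4%). The median log2 ratio of the 8 was 6.13 in WT, 7.55 in LApc and 7.62 in LApcL, beside 0.14, -0.16 and -0.15 over all tested genes. Lists of other endothelial genes moved the same way in WT, with 15 of 15 lymphatic, 8 of 8 pan-endothelial and 10 of 10 blood endothelial genes higher, and with 6 of 8 testable macrophage and 7 of 7 testable fibroblastic genes higher, so the difference was not particular to the 8.

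The hyaluronan receptor Lyve1 measured 589.5 CPM (573 to 606) in shared barcodes read in WT, 596 CPM read in LApc and 586 CPM read in LApcL. In the single-library barcodes it measured 49.8 CPM in WT, 0.564 CPM in LApc and 0.470 CPM in LApcL. The WT ratio was 11.8 (11.3 to 12.4), the smallest of the 8, and the Lyve1 counts in barcodes of the WT library alone are described further on. Podoplanin transcripts (Pdpn) were sparse, with shared levels of 33.9, 35.5 and 35.0 CPM and single-library levels of 0.0731, 0.146 and 0.168 CPM. Its WT UMIs numbered 275, so its level carries a wider interval (30.0 to 38.1 CPM) than that of Lyve1.

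Of the secreted pair, multimerin 1 (Mmrn1) had shared levels of 303, 304 and 302 CPM and single-library levels of 0.548, 0.104 and 0.0671 CPM, for WT, LApc and LApcL. Reelin (Reln) measured 38.3, 38.6 and 36.3 CPM against 0.0548, 0.0313 and 0.0895 CPM. For each gene the counting intervals of the 3 shared readings overlapped, and the same held for the scavenger receptors. Marco measured 574, 555 and 560.1 CPM in the shared barcodes, Mrc1, the mannose receptor, 55.3, 53.3 and 52.7 CPM, Stab1 257, 268 and 272 CPM, and Stab2, which clears hyaluronan, 191, 189 and 187 CPM. In the single-library barcodes of WT these 4 measured 0.438, 1.24, 0.438 and 0.457 CPM.

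**Figure D1:**
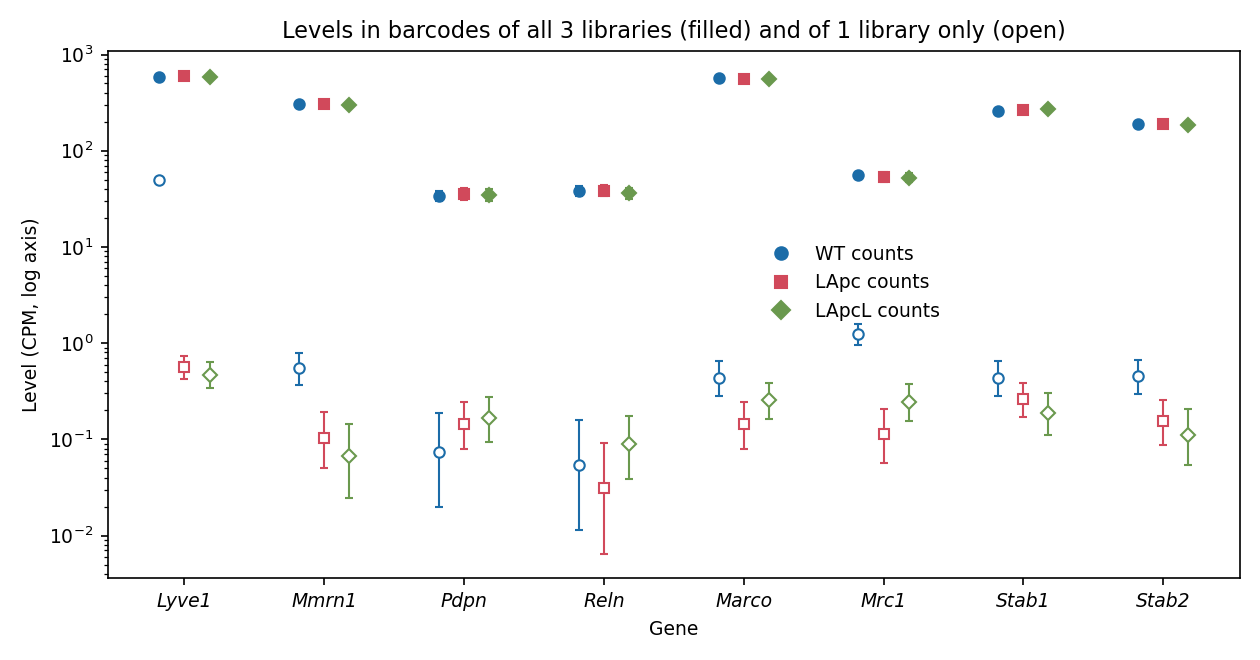
Level of each of the 8 genes as CPM on a log axis, in shared barcodes and in barcodes of 1 library only, for the WT, LApc and LApcL counts, with bars for the exact 95% counting interval. The shared levels of each gene nearly coincide across the 3 libraries, and the single-library level of Lyve1 in WT, 49.8 CPM, stands apart from its 0.564 and 0.470 CPM in LApc and LApcL.

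Within the shared barcodes the 8 genes did not follow one pattern. In the WT counts Lyve1, Reln, Mrc1 and Stab1 were highest in Marco barcodes, Mmrn1, Pdpn and Stab2 were highest in Ackr4 barcodes, and no member was highest in Madcam1 barcodes. In the WT counts Lyve1 measured 2516 CPM in Marco barcodes, 1225 CPM in Madcam1 barcodes, 1123 CPM in Prox1-alone barcodes, 316 CPM in Ackr4 barcodes and 23.3 CPM in the blood endothelial reference. The Madcam1 and Prox1-alone levels overlapped in their intervals (1127 to 1329 and 1054 to 1195 CPM), and the other neighbours did not. In the LApc counts the order was the same, with 2560.1, 1289, 1143, 323 and 23.3 CPM, and in the LApcL counts it was 2545, 1252, 1046, 326 and 23.1 CPM.

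Mmrn1 ran nearly the other way. It measured 968 CPM in Ackr4 barcodes, 644 CPM in Prox1-alone barcodes, 387 CPM in Marco barcodes, 129 CPM in Madcam1 barcodes and 10.1 CPM in the blood reference, with no overlap between neighbouring intervals. The LApc counts gave 979.6, 639.7, 415, 151 and 8.48 CPM. The LApcL counts gave 982, 644, 426, 121 and 8.80 CPM, so the order held in each reading. Reln measured 160.1 CPM in Marco barcodes and 96.7 CPM in Prox1-alone barcodes, but 21.1 and 20.0 CPM in Madcam1 and Ackr4 barcodes, which did not differ beyond their intervals (10.1 to 38.8 and 13.2 to 29.0 CPM). In LApc it measured 145, 121, 12.4 and 25.1 CPM and in LApcL 144, 94.2, 23.0 and 23.1 CPM in the same order of groups.

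Mrc1 differed widely between the lymphatic groups. It measured 263 CPM in Marco barcodes, 123 CPM in Prox1-alone barcodes, 61.1 CPM in Madcam1 barcodes and 13.3 CPM in Ackr4 barcodes in WT. The LApc counts gave 249, 118, 55.6 and 21.8 CPM and the LApcL counts 225, 142, 45.9 and 20.1 CPM. Stab2 split the groups differently from its relative Stab1. It measured 537 CPM in Ackr4 barcodes and 462 CPM in Marco barcodes, whose intervals met (499 to 578 and 424 to 503 CPM), 303 CPM in Prox1-alone barcodes and 103 CPM in Madcam1 barcodes in WT. Stab1 measured 673 CPM in Marco barcodes and 432, 401 and 377 CPM in Prox1-alone, Ackr4 and Madcam1 barcodes in WT, where the last 3 overlapped in their intervals. Stab1 was the only one of the 8 above 50 CPM in the blood endothelial reference, at 57.0 CPM.

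Pdpn measured 99.0 CPM in Ackr4 barcodes, 75.9 CPM in Madcam1 barcodes and 63.2 CPM in Marco barcodes, and the Ackr4 and Madcam1 intervals overlapped (83.0 to 117 and 53.2 to 105 CPM). Of the 8 fibroblastic and smooth muscle genes, Dcn was the 1 that could be tested between Ackr4 and Marco barcodes and was higher in Ackr4 barcodes in each reading. The 8 summed to 123 CPM in Ackr4, 38.1 CPM in Marco and 29.5 CPM in Madcam1 barcodes in WT and 122 CPM in Prox1-alone barcodes, nearly all of it Dcn in Ackr4 barcodes (161 of 166 UMIs), and their part in the Pdpn level was not tested. The Prox1-alone level of Pdpn depended on the library read, at 45.5 CPM in WT, 92.6 CPM in LApc and 80.3 CPM in LApcL for the same barcodes, so its place against that group is not settled by these counts. Marco, which chose its own barcodes, is described only: it measured 4030 CPM in Marco barcodes, 721 CPM in Madcam1 barcodes and 83.5 CPM in Ackr4 barcodes, the latter through 28 shared barcodes.

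**Figure D2:**
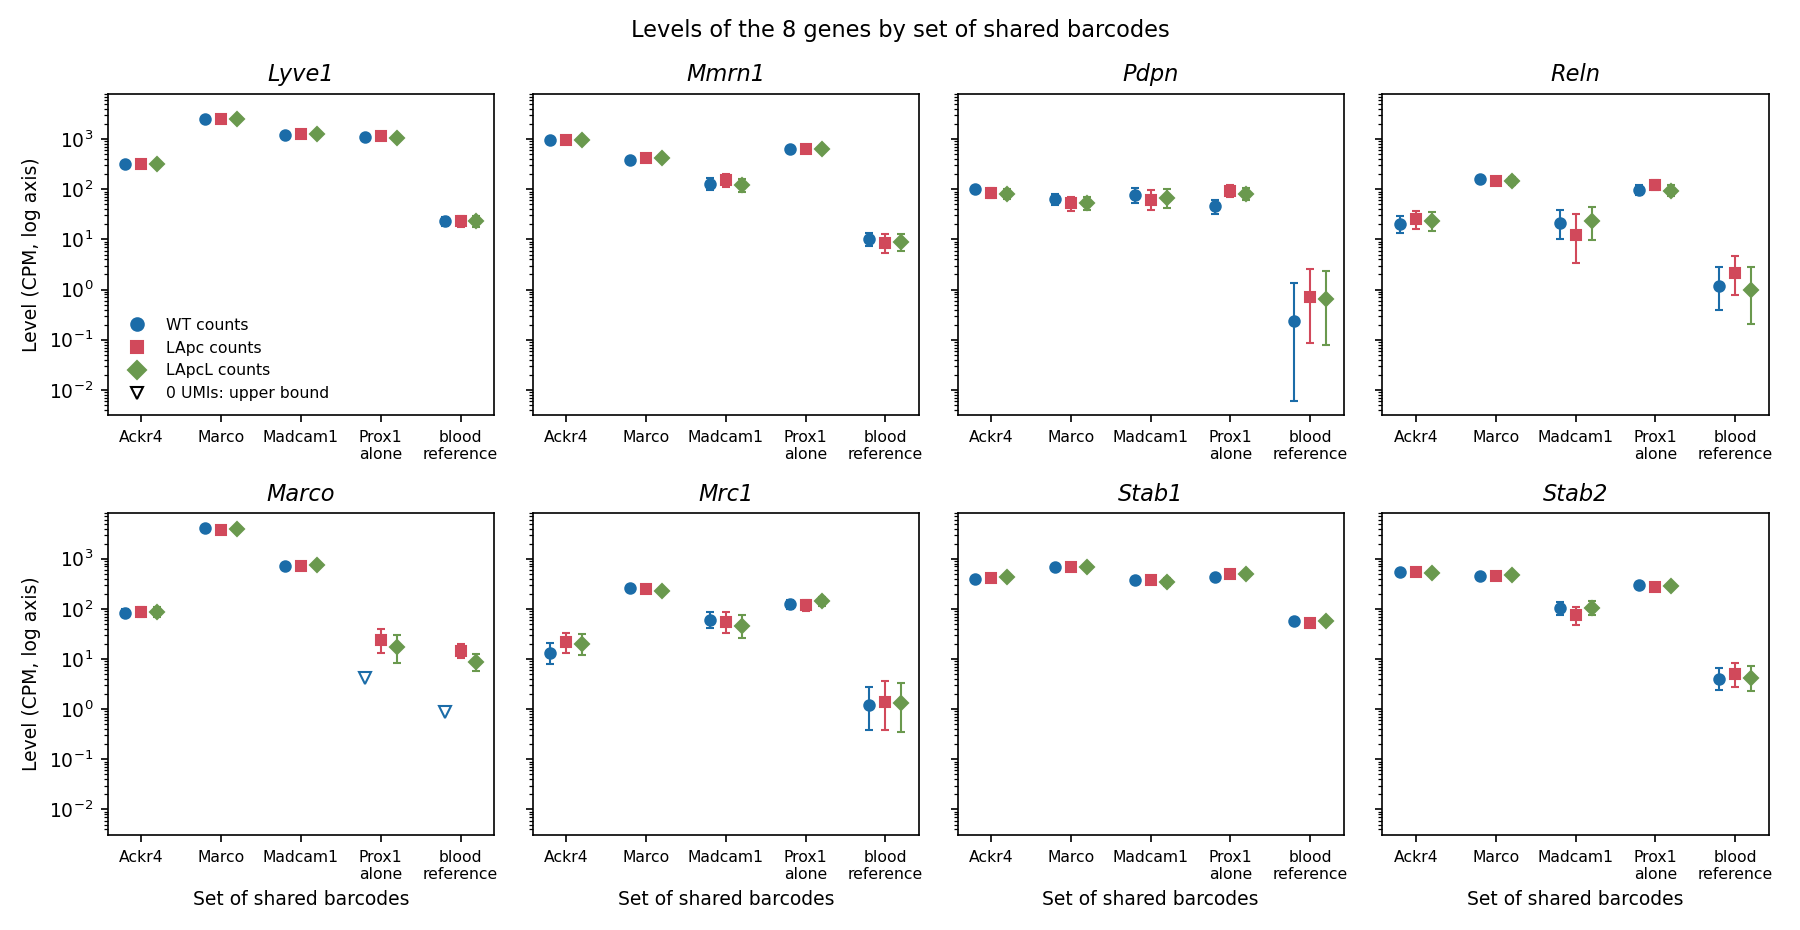
CPM of each gene on a log axis in Ackr4, Marco, Madcam1, Prox1-alone and blood endothelial reference barcodes, read in the WT, LApc and LApcL counts, with exact 95% counting intervals and open triangles for the upper limit where 0 UMIs were counted. Lyve1, Reln and Mrc1 peak in Marco barcodes (2516, 160.1 and 263 CPM in WT), and Mmrn1 peaks in Ackr4 barcodes (968 CPM).

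The groups rest on as little as 1 UMI of the selecting gene, and the members' levels differed across that line. In WT, Lyve1 measured 228 CPM in shared barcodes with none of the 3 genes, 542 CPM in Marco barcodes with exactly 1 Marco UMI (136 barcodes) and 3482 CPM in those with 2 or more. Mrc1 measured 23.2, 31.6 and 376 CPM and Reln 20.1, 47.4 and 215 CPM over the same steps. Barcodes with exactly 1 Marco UMI thus lay nearer to those with none than to those with more. Mmrn1 in Ackr4 barcodes measured 140 CPM with none, 784 CPM with exactly 1 Ackr4 UMI (129 barcodes) and 1030.4 CPM with 2 or more, so that barcodes with exactly 1 Ackr4 UMI lay nearer to those with more.

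Counted against the 2311 shared barcodes with none of the 3 genes, and leaving Marco out, 4 of 7 members were at least 2-fold higher in Ackr4 barcodes in WT, LApc and LApcL alike, where 8.26%, 8.22% and 7.71% of all tested genes were. In Marco barcodes 7 of 7 were higher in each reading (9.38%, 10.3% and 9.91%). In Madcam1 barcodes 4, 4 and 3 of 7 were higher (11.2%, 12.2% and 11.9%). Mrc1 was among them in WT and LApc, and its log2 ratio turned from 1.36 to -0.42 in WT and from 1.24 to -0.82 in LApc when barcodes in more than 1 group were left out, which leaves 3 of 7 in each. None of the 7 was at least 2-fold lower in Ackr4 (9.18%, 10.3% and 10.1%), Marco (10.2%, 10.4% and 10.7%) or Madcam1 barcodes (17.2%, 18.5% and 18.1%). With barcodes in more than 1 group left out, some log2 ratios did pass that line. Mrc1 in Ackr4 barcodes reached -1.06 in WT and -1.23 in LApcL. In Madcam1 barcodes Reln reached -1.14 in WT and -4.60 in LApc, and Stab2 -1.15 in LApcL. The median WT log2 ratios were 1.57, 2.87 and 1.36 for the 7 members and 0.07, -0.01 and -0.01 for all genes tested. Blood endothelial genes moved opposite in this comparison: 10 of 10 were lower in Ackr4 barcodes and 9 of 10 in Marco and in Madcam1 barcodes. Glycam1, a gene of high endothelial venules, was the exception in Madcam1 barcodes, at 8455 CPM against 6564 CPM with none of the 3 genes, 1046 CPM in Ackr4 and 787 CPM in Marco barcodes, so that the 10 genes summed to 9566 CPM there and to 2659 and 2905 CPM in Ackr4 and Marco barcodes. Their part in the members' counts was not tested.

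The groups were then set against the Prox1-alone barcodes. Among barcodes with a Prox1 UMI, 297 were Ackr4, 247 Marco and 98 Madcam1 barcodes, and each was read against the 332 Prox1-alone barcodes. The Prox1-alone barcodes still held 3575 CPM of the 10 blood endothelial genes in WT, of which 6 were at least 2-fold lower in Ackr4, 9 in Marco and 8 in Madcam1 barcodes with Prox1, and their part in the members' ratios was not tested. In Marco barcodes 2, 2 and 1 of 7 members were at least 2-fold higher in WT, LApc and LApcL (background 4.84%, 6.31% and 5.97%), and 0 were lower (8.74%, 8.72% and 9.24%). Lyve1 was 2.74-fold higher in WT (2.54 to 2.94), 2.71-fold in LApc and 2.95-fold in LApcL. Mrc1 was 2.59-fold higher in WT (2.07 to 3.26), 2.65-fold in LApc and 1.93-fold in LApcL. Reln, Stab1 and Stab2 lay short of the 2-fold line in all readings, with WT ratios of 1.97, 1.86 and 1.79.

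In Ackr4 barcodes with Prox1, 3 of 7 members were at least 2-fold lower in each reading (6.78%, 7.01% and 6.62% of all genes), and 1, 1 and 0 were higher (3.89%, 4.85% and 4.68%). The 3 lower members were Lyve1, Reln and Mrc1. Lyve1 was 3.04-fold lower in WT, Reln 3.78-fold lower and Mrc1 7.35-fold lower, where its level was 16.7 CPM against 123 CPM. The member above the line was Pdpn in WT, at 2.38-fold (1.64 to 3.50), and Stab2 in LApc, at 2.12-fold (1.76 to 2.55). Pdpn was at 0.953-fold in LApc and 1.02-fold in LApcL, so its difference was not seen in the other readings of these barcodes. Mmrn1 was 1.67-fold higher in WT (1.51 to 1.85) and stayed short of 2-fold in all 3.

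In Madcam1 barcodes with Prox1, 3, 3 and 4 of 7 members were at least 2-fold lower (13.6%, 15.0% and 13.7%) and 0 were higher (6.41%, 7.34% and 7.09%). Mmrn1 was 5.21-fold lower in WT, Reln 4.52-fold lower and Stab2 2.71-fold lower, and Mrc1 joined them in LApcL at 2.75-fold lower. Lyve1 was 1.17-fold higher in WT (1.05 to 1.30), and was the only member above 1-fold in all 3 readings. The Madcam1 barcodes were the smallest group, and Reln rests there on 10 UMIs in WT.

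**Figure D3:**
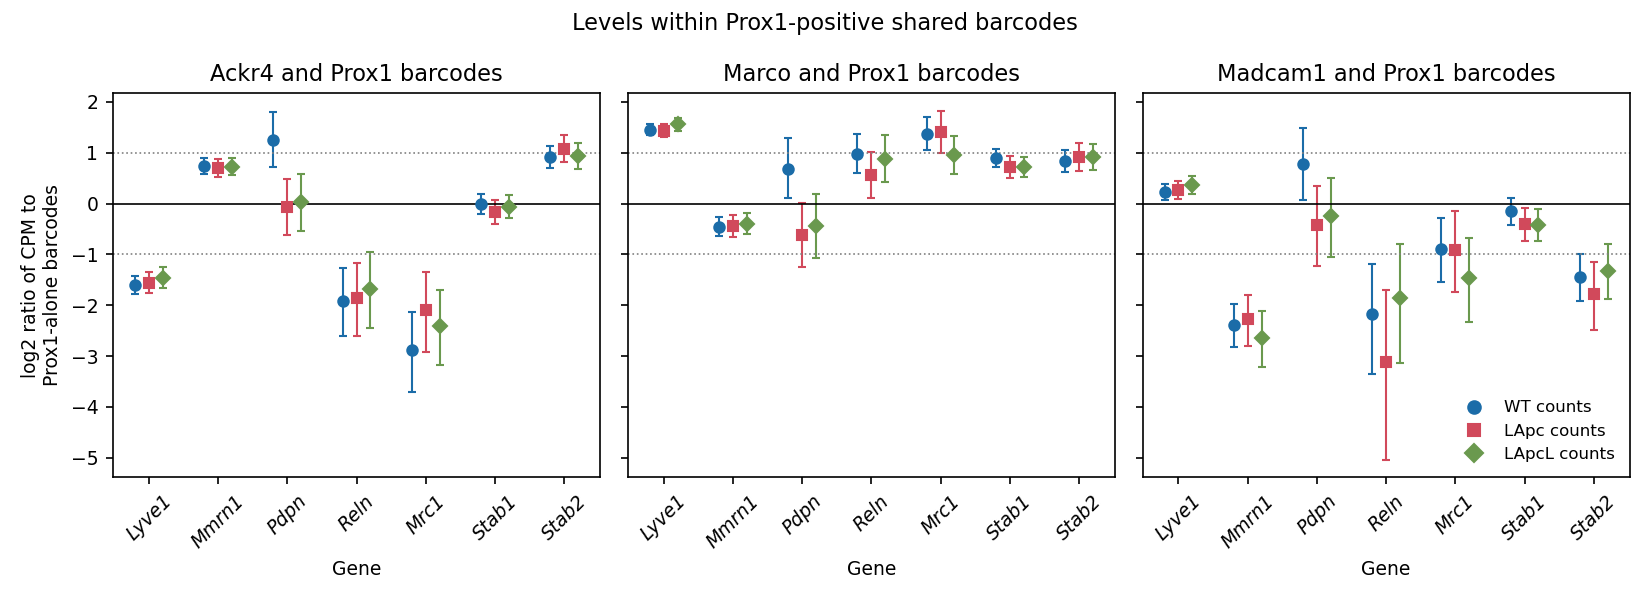
Log2 of the CPM ratio of each member in Ackr4, Marco or Madcam1 barcodes with Prox1 to Prox1-alone barcodes, for the 3 readings, with exact 95% counting intervals and dotted lines at 2-fold. Lyve1 and Mrc1 lie on opposite sides of 0 in Marco and Ackr4 barcodes (WT ratios 2.74 and 2.59 against 3.04-fold and 7.35-fold lower), and Mmrn1 and Stab2 are lowest in Madcam1 barcodes.

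The groups were also read against each other. In WT, Ackr4 barcodes held 11.4-fold less Lyve1, 13.7-fold less Reln and 25.5-fold less Mrc1 than Marco barcodes, and 2.87-fold more Mmrn1, once barcodes in both groups were left out. In WT, LApc and LApcL alike 3 of 7 members were lower (10.1%, 10.3% and 9.85% of all genes) and 1 was higher (9.26%, 9.92% and 10.3%). Madcam1 barcodes had 6, 5 and 6 of 7 members lower than Marco barcodes in WT, LApc and LApcL (12.8%, 14.4% and 14.1%), and 0 higher (6.98%, 7.56% and 7.41%). The 24 barcodes in both groups were left out there, which took the WT Madcam1 levels of Reln, Stab2 and Mrc1 from 21.1, 103 and 61.1 CPM to 8.14, 32.6 and 19.0 CPM, on 3, 12 and 7 UMIs. As ratios to Marco barcodes these were 0.0480 for Reln (0.00981 to 0.143), 0.0688 for Stab2 (0.0353 to 0.121) and 0.0707 for Mrc1 (0.0282 to 0.148). Against Ackr4 barcodes, Madcam1 barcodes held 4.01-fold more Lyve1 in WT, and 8.55-fold less Mmrn1 and 5.07-fold less Stab2. In each reading 2 of 7, Lyve1 and Mrc1, were higher (8.89%, 9.28% and 9.05% of all genes) and 2 of 7 lower (13.7%, 14.7% and 14.5%). The Mrc1 call rests on Madcam1 barcodes that also held Marco, as without those Mrc1 fell to 19.0 CPM in WT, against 12.7 CPM in Ackr4 barcodes.

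Macrophage genes stayed low in every group. The 14 genes summed to 31.0 CPM in Ackr4 barcodes, 69.2 CPM in Marco barcodes, 69.6 CPM in Madcam1 barcodes and 47.2 CPM in barcodes with none of the 3 genes. Fcgr1 and Itgax were at 0 UMIs in Marco barcodes, and Adgre1, Ptprc, C1qa, Fcgr1, Tyrobp and Itgax were at 0 in Madcam1 barcodes. Ptprc, the pan-leukocyte phosphatase, measured 1.73 CPM in Marco barcodes. Of the single genes, Lyz2 was at least 2-fold higher in Marco barcodes with Prox1 than in Prox1-alone barcodes, the 1 of 3 testable macrophage genes to be so, and Aif1 and Lyz2 were in Madcam1 barcodes with Prox1 (2 of 3), both in the WT counts. For Marco barcodes with Prox1, 0 macrophage genes were called in the LApc and LApcL counts. Against barcodes with none of the 3 genes, Aif1 and Lyz2 were higher and Cd68 lower in Marco barcodes (of 6 testable in WT), and Csf1r, Aif1 and Lyz2 were higher and Cd68 and Fcer1g lower in Madcam1 barcodes (of 6). In LApc and LApcL, 1 and 1 were higher in Marco barcodes (Tyrobp, then Lyz2) and Aif1 and Lyz2 were higher in Madcam1 barcodes in both. Their part in the members' levels was not tested.

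The same groups were visible in the share of barcodes with a UMI, where depth had to be held level because median depth differed, at 2965, 3000 and 3897 UMIs in Ackr4, Marco and Madcam1 barcodes and 1964 in the blood reference. After thinning each WT barcode to 1000 UMIs, Lyve1 was found in 65.5% of Marco barcodes (60.1 to 70.6), 59.5% of Madcam1 barcodes (49.7 to 68.7) and 8.74% of Ackr4 barcodes. Mmrn1 was found in 57.0% of Ackr4 barcodes (52.1 to 61.9), 22.9% of Marco barcodes and 7.21% of Madcam1 barcodes. Stab2 was found in 35.7%, 29.2% and 5.41% of Ackr4, Marco and Madcam1 barcodes. Without thinning, Lyve1 was found in 12.8%, 70.1% and 80.5% of Ackr4, Marco and Madcam1 barcodes and Mmrn1 in 77.5%, 42.5% and 34.5%. At 1000 UMIs the intervals of the Lyve1 shares of Marco and Madcam1 barcodes overlapped in all 3 readings (64.5% and 66.1% in LApcL). At 500 UMIs they did not overlap in WT, at 50.1% of Marco barcodes (44.8 to 55.5) and 34.5% of Madcam1 barcodes (25.8 to 44.0), and they overlapped in LApc and LApcL. In the blood reference, thinned, Lyve1 was found in 1.47% and Mmrn1 in 1.02%, and Pdpn in 0 of 1567 barcodes. Those shares were taken as background, and the lymphatic shares of Lyve1, Mmrn1 and Stab2 lay above them. Reln in Ackr4 (1.46%) and Madcam1 barcodes (1.80%), and Mrc1 in Ackr4 barcodes (1.94%), rested on 6, 2 and 8 barcodes.

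The number of members found in the same barcode differed by group too. Counting the 7 members without Marco in barcodes thinned to 1000 UMIs, the mean was 1.96 in Marco, 1.52 in Ackr4, 1.41 in Prox1-alone and 1.14 in Madcam1 barcodes in WT, against 0.0881 in the blood reference and 0.0464 in single-library barcodes. In Marco barcodes 37.2% held 3 or more members, in Prox1-alone barcodes 21.0%, in Ackr4 barcodes 17.7%, in Madcam1 barcodes 6.31%, and in the blood reference and the single-library barcodes 0.

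Pairs of members were found together more often than the product of their shares in the shared barcodes as a whole. All 28 pairs lay above that product in WT, thinned to 1000 UMIs over 2807 barcodes, from 1.49 times (Mmrn1 with Marco) to 8.52 times (Reln with Mrc1). These barcodes hold lymphatic and blood endothelial counts together, so the pairs were read again within Prox1 barcodes. Among the 875 barcodes with Prox1 the ratios fell, and 23 of 28 pairs stayed above 1. Reln with Mrc1 stood at 3.55, Marco with Mrc1 at 2.52, Lyve1 with Marco at 2.18 and Lyve1 with Mrc1 at 2.17. Mmrn1 with Stab2 stood at 1.52. Mmrn1 with Marco stood at 0.750 and Lyve1 with Mmrn1 at 0.907, the former also below 1 in the LApc and LApcL counts of the same barcodes (0.906 and 0.811). Lyve1 was found in 87.6% of Prox1 barcodes with Marco, 87.1% of those with Mrc1 and 86.9% of those with Reln.

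**Figure D4:**
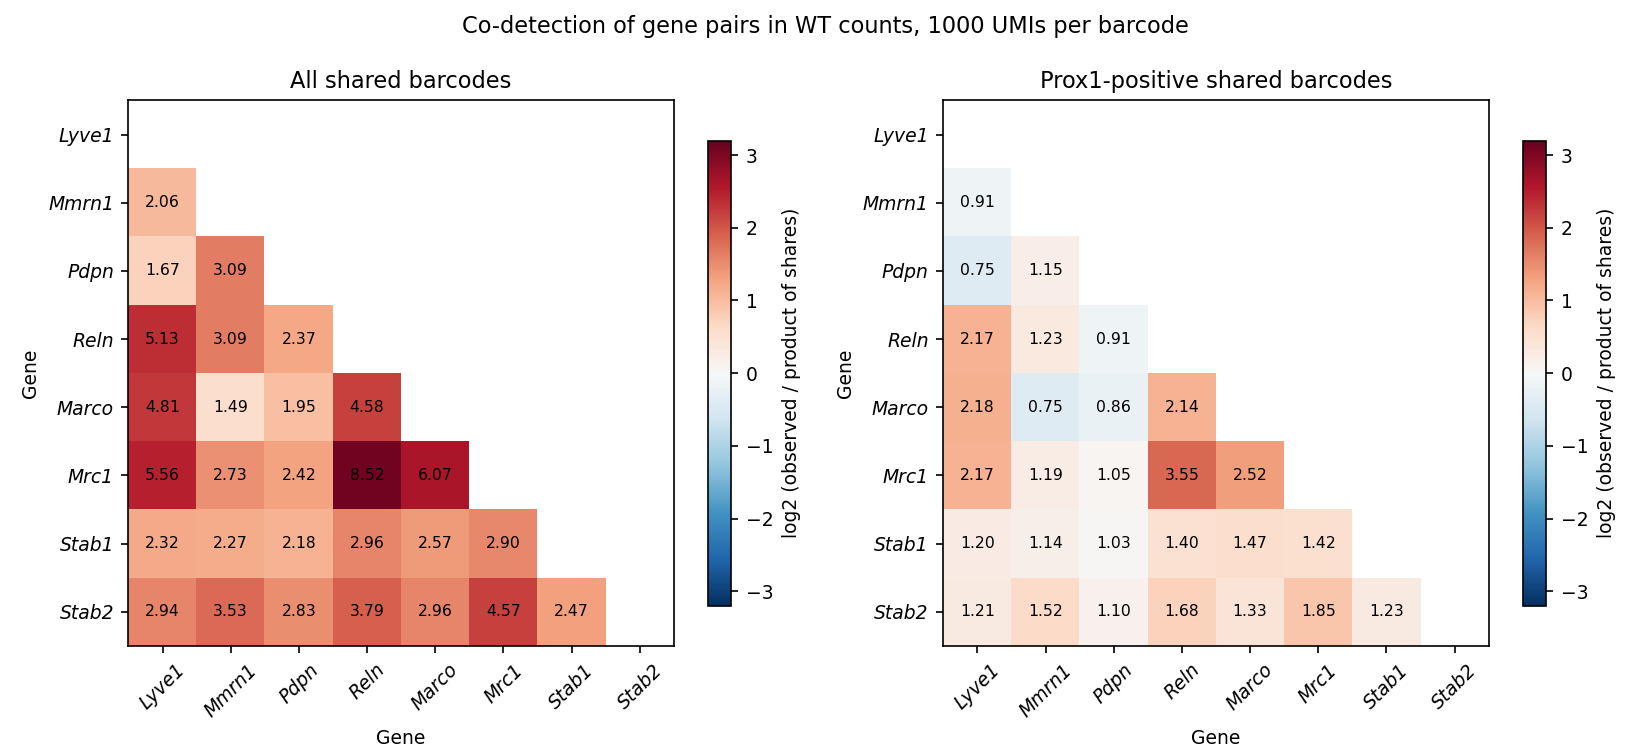
Observed share of barcodes with both members of a pair divided by the product of the 2 shares, WT counts thinned to 1000 UMIs, for all shared barcodes and for those with Prox1. All 28 pairs lie above 1 over all shared barcodes, and 23 of 28 do among Prox1 barcodes, where Mmrn1 with Marco (0.750) is below 1.

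Genes whose level followed a member most closely over the 3145 shared barcodes in WT, by Pearson r of log-scaled counts among 5399 genes, are a description without a test, since barcodes share depth and cell type. Lyve1 went with F8 (coagulation factor VIII, r = 0.69), C3 (0.69) and Itga2b (0.65). Marco went with Lyve1 (0.61), Mt1 (0.53) and F8 (0.53), and Mrc1 with Lyve1 (0.59), Marco (0.52) and F8 (0.51). Reln went with Lyve1 (0.49), Mrc1 (0.47) and F8 (0.41). Mmrn1 had other partners, Clca3a1 (0.64), Cp (ceruloplasmin, 0.63) and Fxyd6 (0.63), and Stab2 went with Tnc (tenascin C, 0.65), Clca3a1 (0.56) and Mmrn1 (0.55). Stab1 went with Prox1 (0.50), Cd55 (0.48) and Clca3a1 (0.46), and Pdpn, the sparsest, with Fxyd6 (0.31), Cd55 (0.28) and Mmrn1 (0.28). Stab1 was as close to Lyve1 (0.458) as to Mmrn1 (0.456), and Stab2 had r = 0.43 with Lyve1, so the 8 genes did not divide cleanly.

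How closely a barcode's member counts matched between libraries differed by gene. Over the 3145 shared barcodes, WT and LApc counts correlated with r = 0.970 for Marco, 0.944 for Lyve1, 0.827 for Mmrn1, 0.770 for Stab1, 0.756 for Stab2, 0.733 for Mrc1, 0.680 for Reln and 0.484 for Pdpn. WT and LApcL gave 0.970, 0.951, 0.843, 0.766, 0.765, 0.716, 0.662 and 0.431 in the same order. Of 587 barcodes with Lyve1 in WT, 471 (80.2%) had it in LApc as well, beside 57 of 2558 (2.23%) without it in WT. For the sparser genes fewer were found again, 103 of 169 (60.9%) for Reln and 90 of 209 (43.1%) for Pdpn. Summed over barcodes, the members' LApc UMIs were 0.655 to 0.713 times those in WT, and the LApcL UMIs 0.698 to 0.78 times. All UMIs of the same barcodes were 0.680 times (LApc) and 0.736 times (LApcL) those in WT, which lies inside both ranges.

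In the single-library barcodes, Lyve1 was the only member counted at a level above 2 CPM, and that was in WT alone. It measured 49.8 CPM (2728 UMIs) in 2992 WT single-library barcodes, where 857 (28.6%) held it, against 54 UMIs in LApc and 42 in LApcL. The WT level was 88.4-fold that of LApc (67.6 to 118) and 106-fold that of LApcL (78.2 to 147), in 1 library per genotype. At far lower levels, 3 other members were also higher in WT than in both other libraries beyond their counting intervals. Mrc1 was 10.8-fold and 5.05-fold higher than in LApc and LApcL (68, 11 and 22 UMIs), Mmrn1 5.25-fold and 8.16-fold (30, 10 and 6 UMIs) and Stab2 2.92-fold and 4.08-fold (25, 15 and 10 UMIs). Thinned to 500 UMIs, Mmrn1 was found in 17 of 2992 WT barcodes, Stab2 in 9 and Mrc1 in 6. At 1000 UMIs, with shallower barcodes left out, they were found in 0, 3 and 5 of 2567. The Mmrn1 counts thus lay mostly in shallow barcodes, and the part of depth in these ratios was not tested. The WT single-library barcodes with Lyve1 were not endothelial by their counts. They held Epcam in 97.2% and 1156 CPM of it, and 0.992 CPM of Prox1, while shared barcodes with Lyve1 held 5.94 CPM of Epcam and 1061 CPM of Prox1. Pecam1 measured 1.02 CPM in them and 7.12 CPM in WT single-library barcodes without Lyve1. Of the latter's 160 Pecam1 UMIs, 26 lay in barcodes of at least 10000 UMIs. Prox1 itself was not limited to endothelial counts in this series, at 433 CPM in the single-library barcodes of LApc and 154 CPM in those of LApcL, against 3.18 CPM in WT. Another member was found in 67 of the 857 (7.82%) and in 505 of 587 shared barcodes with Lyve1 (86.0%).

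The share of WT single-library barcodes with Lyve1 rose with depth, while the level showed no steady order. The share was 3.06% at 500 to under 1000 UMIs, 10.6% at 3000 to under 10000 and 66.9% at 30000 and over, while the level was 71.3, 24.9 and 54.2 CPM. At 30000 UMIs and over, 3.25% of LApc and 2.76% of LApcL barcodes held it. Split by Fabp1, a fatty acid carrier of enterocytes, in barcodes of at least 10000 UMIs, Lyve1 measured 52.3, 46.4, 48.9 and 58.1 CPM from the lowest to the highest bin. Chosen after their values were seen, the genes most like Lyve1 over 1208 such barcodes were Irak2 (r = 0.50), Gm9926 (0.49), Areg (0.46), Hif1a (0.44) and Gm9895 (0.43) among 7240 genes, none of which was among its 3 closest genes in the shared barcodes.

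Genes that act with the members were read from lists, each against barcodes with none of the 3 genes in WT. Of the hyaluronan genes, Cemip2, a hyaluronidase, and Tnfaip6 were at least 2-fold higher and Has1 lower among 7 testable genes in Marco barcodes, and Cemip2 measured 2244 CPM there, 1763 CPM in Madcam1 barcodes and 613 CPM in Ackr4 barcodes. In Madcam1 barcodes 3 of 7 were higher, Cd44, Cemip2 and Tnfaip6, with Cd44, another hyaluronan receptor, at 59.0 CPM against 5.58 CPM. In Ackr4 barcodes Hmmr was higher and Cd44 lower of 8 in WT, and 0 of 6 and 0 of 7 were called in LApc and LApcL. Tnfaip6 in Marco barcodes was likewise called in WT alone. Of the other scavenger receptors, 4 of 8 were higher in Marco barcodes (Msr1, Scarb2, Scara3 and Olr1) and Scarb1 lower. Msr1 measured 429 CPM in Marco and 616 CPM in Madcam1 barcodes but 35.5 CPM in Ackr4 barcodes, while Cd36 measured 1034 CPM in Ackr4, 168 CPM in Marco and 6.33 CPM in Madcam1 barcodes. Cd36 and Colec12 were the 2 of 6 higher in Ackr4 barcodes, where Scarb1 was lower. In Madcam1 barcodes Msr1 and Scara3 were higher and Cd36 and Scarb1 lower, of 7.

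The podoplanin partner Clec1b measured 88.3 CPM in Marco, 13.3 CPM in Ackr4 and 8.43 CPM in Madcam1 barcodes, and in WT was called higher than in barcodes with none of the 3 genes in the former pair, though not in Ackr4 barcodes in LApcL. In LApc it was also called higher in Madcam1 barcodes, on 4 UMIs. The chemokine Ccl21a, which binds podoplanin, was lower in all 3 groups. For reelin, Vldlr, Lrp8 and Dab1 were lower in shared than in single-library barcodes in WT (3 of 3), but Dab1 was higher in LApc and LApcL, and Vldlr was not called in LApcL. Of 2 testable in each group, Dab1 was lower in Ackr4 barcodes in each reading, and Vldlr was higher in Marco and Madcam1 barcodes in LApc and LApcL but not in WT. Of the EMI-domain relatives of Mmrn1, Emilin1 was higher in each of the 3 groups, at 65.0, 63.2 and 46.4 CPM in Ackr4, Marco and Madcam1 barcodes against 14.0 CPM, and Mmrn2 was lower in Madcam1 barcodes in WT and LApcL. Prox1 measured 669, 1249 and 991 CPM and Flt4 183, 340.1 and 160.2 CPM in Ackr4, Marco and Madcam1 barcodes, against 169 and 60.3 CPM in barcodes with none of the 3 genes. Of the 15 lymphatic genes, 11, 9 and 7 were higher and 1, 1 and 3 lower in Ackr4, Marco and Madcam1 barcodes, with median log2 ratios of 1.59, 1.22 and 0.54. Of 12 further sinus genes, 4, 3 and 4 were higher and 4, 4 and 6 lower.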

How the data were processed

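Single-cell libraries were counted by the authors with Cell Ranger against mm10 (GRCm38). The file headers give version 6.0.1 and the submitters' processing notes 2.1.1. The deposited matrices hold UMI counts per gene and called barcode, not normalized, each barcode with at least 500 UMIs. Counting by strand was taken from Cell Ranger's default, so Stab1 and the gene on its opposite strand are kept apart. Groups come from the labels, and there was 1 library per genotype.

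Barcodes with over 20% of UMIs from 13 mitochondrial genes were left out (45.5%, 36.8% and 34.8% of WT, LApc and LApcL barcodes), and for shared barcodes this was read in the WT counts. UMIs were summed per set and library as CPM, with exact Poisson intervals for levels, exact conditional binomial intervals for ratios and Clopper-Pearson intervals for shares. Log2 ratios used a pseudocount of 1 CPM, and a gene was called at 2-fold with at least 10 UMIs over both sets. Shares and co-detection were read after thinning to 1000 UMIs, and shallower barcodes were left out. The blood reference was the shared barcodes with at least 2 UMIs of Cd34, Flt1, Sele, Selp and Ly6c1 together and none of Prox1 or the 3 selecting genes. No doublet caller was run. The steps were tested on simulated counts. Python 3.11.15, numpy 2.4.6, scipy 1.17.1, pandas 2.3.3 and matplotlib 3.10.9 were used.

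The genes named are the 8 members, the 3 selecting genes, the fixed lists and, for each member, the 3 genes with the highest correlation over shared barcodes (members with at least 100 UMIs, other genes with at least 200). The members and lists were chosen with earlier results of these data known. Alternatives changed the selecting minimum (2 UMIs), the library that set the groups, the mitochondrial limit (10%, or read in each library, the latter added after the data were seen), the pseudocount (10), the thinning (500) and the barcodes kept.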

Additional observations from a re-analysis of the deposited data

Results flagged for a closer look

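Some barcodes left out of the comparisons also held the members. In the 80 WT barcodes found in exactly 2 libraries, the 8 genes summed to 113 CPM, above the 53.1 CPM of single-library barcodes, and in the 81 such LApcL barcodes to 51.0 CPM, above 1.60 CPM. The 32 such LApc barcodes held 2 UMIs, 3.72 CPM (0.450 to 13.4), which was not above 1.52 CPM beyond its interval. In the 50 shared barcodes over the mitochondrial limit they summed to 1743 CPM in WT, 2346 CPM in LApc and 2459 CPM in LApcL. These barcodes were flagged because they lie outside the compared sets and hold the members above the single-library level. No group of 4 to 10 samples exists in this series, so no sample could be marked as far from its group.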

How the results depend on the processing

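No paired analysis was possible because each genotype had 1 library and the comparisons are between barcodes of the same library. All comparisons of shared with single-library barcodes stayed past 2-fold under every alternative run, but their sizes changed. Over the alternatives the WT log2 ratio ran from 4.15 to 7.92 for Mmrn1 (7.62 as reported) and from 5.48 to 8.97 for Marco (8.64). For Lyve1 it ran from 3.29 to 3.83 (3.54). Of 162 counts of members past 2-fold under alternatives, 152 stayed within 1.5 times of the reported count. Restricting the comparison to shared barcodes with a Prox1 UMI moved 9 of the other 10, from 4, 4 and 4 of 7 members higher to 1, 1 and 0 in Ackr4 barcodes, from 7, 7 and 7 to 2, 2 and 1 in Marco barcodes and from 4, 4 and 3 to 0, 0 and 0 in Madcam1 barcodes (WT, LApc and LApcL). Taking the sets from the LApc counts moved the remaining one, to 5 members higher in Madcam1 barcodes in the LApcL counts. Of 882 ratios of single members by set, 63 turned sign, 18 of them past 2-fold as reported and 45 short of it. The Prox1 restriction accounts for 28 of the 63, the unlisted ones being Lyve1 and Reln in Ackr4 barcodes and Mmrn1, Reln, Mrc1 and Stab2 in Madcam1 barcodes. For the 18, the log2 ratios under the Prox1 restriction against barcodes with none of the 3 genes became, in Ackr4 barcodes, -0.0088, -0.164 and -0.0612 for Stab1 (WT, LApc, LApcL) and -0.0681 for Pdpn (LApc), in Marco barcodes -0.45, -0.44 and -0.39 for Mmrn1 and -0.60 and -0.43 for Pdpn (LApc, LApcL), and in Madcam1 barcodes -0.88 and -0.90 for Mrc1 (WT, LApc), -0.15, -0.41 and -0.42 for Stab1 and -0.41 and -0.24 for Pdpn (LApc, LApcL). Barcodes in exactly 1 set gave -0.42 and -0.82 for Mrc1 in Madcam1 barcodes (WT, LApc). The cause was not tested. Shares and co-detection moved with the thinning, for 211 of 288 shares and for 162 of 168 percentages of barcodes with both members of a pair. The ratios of these percentages to the product of the shares were not compared between thinnings. Pdpn, Reln and Mrc1 rest on the fewest UMIs of the 8 in the shared barcodes (275, 311 and 449 in WT), and 1 library per genotype allows no statement about genotype.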
